A study of Mus musculus with 4 samples.

Results

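The tumor necrosis factor (TNF) receptor superfamily was examined through 10 genes, Tnfrsf1a, Tnfrsf25, Fas, Tnfrsf1b, Tnfrsf4, Tnfrsf9, Tnfrsf18, Cd27, Tnfrsf14 and Ltbr, in RNA sequencing libraries of activated lung group 2 innate lymphoid cells (ILC2s). All 10 were found by gene symbol among the 22558 genes with an expected count, the number of reads estimated for each gene. The 2 WT libraries were made from C57BL/6 mice and the 2 ICAM-1 KO libraries from ICAM-1 deficient animals, with 4 animals aged 6 weeks pooled for each library. All mice, WT included, were challenged intranasally 3 times with the cytokine IL-33 (0.5 µg of rmIL-33 each time), and Lin- CD45+ ST2+ CD127+ cells were sorted from the lungs on day 4. The ICAM-1 deficient strain carries the Icam1 tm1Jcgr allele in every cell, so the comparison is not limited to ILC2s.

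Icam1 RNA did not tell the groups apart in the direction of the labels. WT had 2579 and 2630 Icam1 counts, and the other pair had 2811.9 and 3452.8 (log2 fold change 0.33, adjusted p = 0.0745 by the quasi-likelihood test of edgeR). The latter are therefore called the KO-labelled libraries, and every direction below is relative to that label. The counts are per gene, and whether they include the exons altered in the targeted allele was not checked, so this RNA level alone does not show which allele a library carried. From flow cytometry of lung ILC2s, the paper reports that its ICAM-1 deficient mice lack ICAM-1 protein, a measure unlike RNA. Depth was 24796148 to 28782471 counts per library. ILC2 markers were high in all 4 libraries, with summed normalized counts of 5230 and 5840 in WT and 4780 and 5010 in the KO-labelled libraries, and of 10 such markers 1 rose and 2 fell. Gata3, Il1rl1 and Il7r, which the sort or the lineage rests on, did not pass the test. For Il7r the adjusted p of 0.0513 (edgeR) lay close to the threshold of 0.05, and DESeq2 called it higher (adjusted p = 0.0194). A normalized count is the authors' upper quartile scaled value. In bulk RNA, a change in the number of cells that carry a transcript and a change in RNA per cell cannot be told apart.

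TNF receptors are membrane proteins that are clustered by trimeric ligands of the TNF family. Receptors with a cytoplasmic death domain, such as TNFR1, Fas and DR3, recruit adaptors that lead to NF-kB activity or to caspases and cell death. The others examined here bind TRAF adaptors directly, and most of them act mainly as costimulatory receptors on lymphocytes. DR3 with its ligand TL1A, GITR and OX40 are known costimulators of ILC2s, and GITR, OX40, 4-1BB and TNFR2 are also well known from regulatory T cells.

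Promoter sequence was available for all 10 genes, as 12 windows of 250 bases before to 50 bases after a RefSeq start site (build GRCm38.p6). The bases before the start site are shown for Tnfrsf9, Tnfrsf4 and Tnfrsf18. The Tnfrsf9 window shown was the only one of the 12 with a kappaB consensus match, and the window at its other start site had 0. Tnfrsf4 and Tnfrsf18 are neighbors on chromosome 4 of which one passed the test below and the other did not. All 3 lie on the plus strand and are written 5′ to 3′. Capitals mark the kappaB matches in Tnfrsf9, and matches to the STAT motif TTCNNNGAA in the other two.
Tnfrsf9, chr4:150927749-150927998: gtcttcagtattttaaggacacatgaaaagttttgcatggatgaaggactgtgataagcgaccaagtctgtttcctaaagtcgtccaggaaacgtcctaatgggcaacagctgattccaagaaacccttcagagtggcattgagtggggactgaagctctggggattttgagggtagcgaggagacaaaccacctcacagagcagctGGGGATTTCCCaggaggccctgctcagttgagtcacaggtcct
Tnfrsf4, chr4:156013445-156013694: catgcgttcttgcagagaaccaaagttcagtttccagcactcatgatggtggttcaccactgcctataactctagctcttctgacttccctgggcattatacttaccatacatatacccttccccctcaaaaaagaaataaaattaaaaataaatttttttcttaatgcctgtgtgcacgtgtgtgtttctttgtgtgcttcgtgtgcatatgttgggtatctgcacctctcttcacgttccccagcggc
Tnfrsf18, chr4:156026072-156026321: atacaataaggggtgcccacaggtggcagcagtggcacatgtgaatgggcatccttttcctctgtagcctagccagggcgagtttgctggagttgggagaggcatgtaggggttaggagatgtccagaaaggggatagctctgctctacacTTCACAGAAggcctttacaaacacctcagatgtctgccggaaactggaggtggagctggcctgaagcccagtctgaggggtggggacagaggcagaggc

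In Tnfrsf9 the capitals cover 2 overlapping kappaB matches, the first beginning 43 bases before the start site. In Tnfrsf18 the STAT match begins 99 bases before it, and the Tnfrsf4 sequence has no such match. Altogether 9 motifs were searched on both strands, and they were chosen after the expression values had been seen. The kappaB consensus was matched in 4.51% of all 32851 windows, and a looser kappaB pattern, which contains it, in 9 of the 12 receptor windows and 50.8% of all. TTCNNNGAA was matched in 6 of the 12 (Fas, Tnfrsf18, Tnfrsf1a, Tnfrsf1b, Tnfrsf25 and Tnfrsf9) and 8.30% of all, and the AP-1 motif TGANTCA in 2 (Fas and Tnfrsf9) and 7.81% of all. The GC box GGGCGG was matched in 5 (35.7% of all), the ETS motif CCGGAA in 4 (14.9%) and the RUNX motif TGTGGT in 2 (16.8%). The GATA motif AGATAA and the TATA box TATAAA were matched in 0 of the 12, against 11.2% and 13.6% of all windows. The STAT matches occur in genes that rose and in genes that did not pass the test.

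Of the 10 receptor genes, 9 had enough counts to be tested, and 5 of these rose in the KO-labelled libraries. They were Tnfrsf1a, Tnfrsf1b, Tnfrsf4, Tnfrsf9 and Ltbr (edgeR, adjusted p under 0.05 over 11711 genes). Of all genes tested, 8.80% rose by the same rule. Of the 9, Ltbr, Tnfrsf1a and Tnfrsf9 rose 2-fold or more, as did 4.94% of all genes tested. Among all 1030 genes that rose, 578 did so by 2-fold or more, beside 3 of the 5 receptors. None of the 9 fell, against 4.97% of all genes. DESeq2 and limma also called 0 lower. At an unadjusted p under 0.05 in edgeR, 1 of the 9, Tnfrsf25, was lower, as were 1537 of all 11711 genes tested. Without regard to the test, normalized counts did not overlap between the groups for 7 genes that were higher (28.3% of all genes) and for 1 that was lower (31.3%). The median log2 fold change was 0.79 over the 9 genes tested and 0.76 over all 10, the latter as the ratio of mean normalized counts, beside 0.01 over all genes tested. The summed normalized count of the 10 genes was 753 and 990 in WT and 1110 and 1290 in the KO-labelled libraries.

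**Figure D1:**
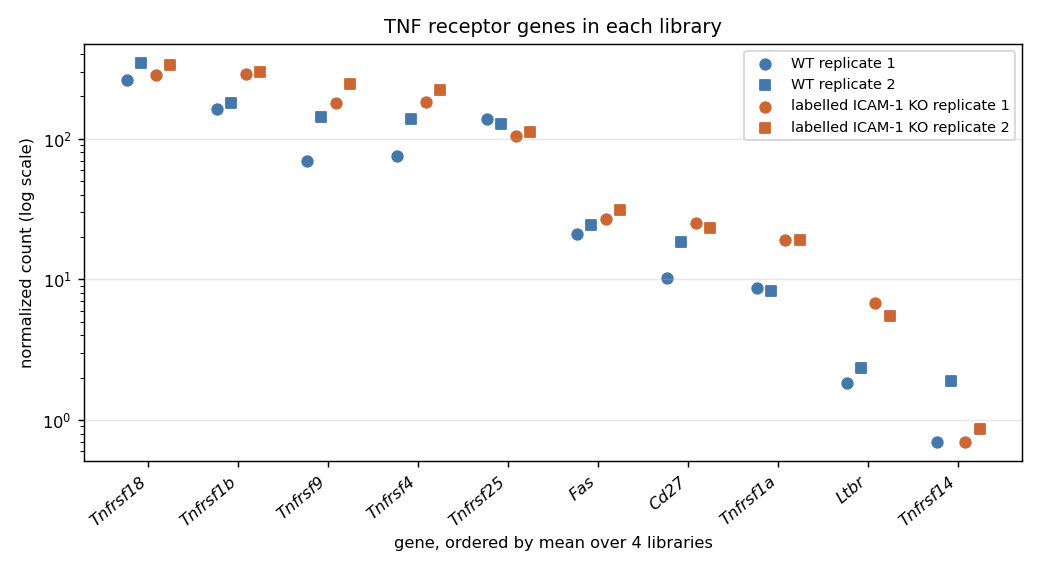
Normalized count (log axis) of each receptor gene in each of the 4 libraries, with blue for WT, orange for the KO-labelled libraries, circles for replicate 1 and squares for replicate 2. WT replicate 1 is the lowest library for Tnfrsf9, Tnfrsf4 and Cd27, whereas both WT libraries lie close together for Tnfrsf1a and Tnfrsf1b.

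The 3 death domain receptors did not move alike. Tnfrsf1a, which encodes TNFR1, the main receptor of soluble TNF, lies on chr6:125349362-125362484 (mm10, plus strand). Its normalized count was 8.65 and 8.3 in the WT libraries and 19 and 19.2 in the KO-labelled libraries. The groups were well apart and the replicates nearly equal. The means were 8.47 ± 0.25 (SD, n = 2) and 19.1 ± 0.134 (SD, n = 2), a log2 fold change of 1.20 (edgeR, standard error or SE 0.218, adjusted p = 0.00989). Leaving out any 1 library gave 1.17 to 1.23, and Tnfrsf1a passed the test in all 11 alternatives in which it was fitted.

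Fas, which encodes the receptor of Fas ligand, lies on chr19:34290659-34327770 (plus strand). Its normalized count was 21 and 24.5 in WT and 26.9 and 31.4 in the KO-labelled libraries, so the groups did not overlap but lay close. The log2 fold change of 0.39 (95% interval -0.01 to 0.79) did not pass the test (adjusted p = 0.177, edgeR). Tnfrsf25, which encodes DR3, the receptor of TL1A, lies on chr4:152115934-152120119 (plus strand). It was the one receptor with lower values in both KO-labelled libraries, at 104 and 111 normalized counts against 139 and 127 in WT. The log2 fold change was -0.27 (95% interval -0.5 to -0.04) with an adjusted p of 0.105 from edgeR, which missed the threshold.

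Among the receptors that bind TRAF proteins, Tnfrsf1b was the most stable of the genes that rose. It encodes TNFR2, which responds chiefly to membrane TNF, and lies on chr4:145213463-145246870 (minus strand). Normalized counts were 164 and 181 in WT and 287 and 296 in the KO-labelled libraries. Both of the latter exceeded both WT values by more than the gap between replicates. The means of 172 ± 12.2 and 291 ± 6.33 (SD, n = 2 each) gave a 1.72-fold rise (log2 fold change 0.79 with an SE of 0.0911, adjusted p = 0.00148, edgeR). All 11 alternative fits also called it, and leaving out 1 library gave 0.72 to 0.86 on the log2 scale.

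Tnfrsf4 and Tnfrsf9 encode the costimulatory receptors OX40 and 4-1BB. Tnfrsf4 (chr4:156013843-156016612, plus strand) had normalized counts of 75.9 and 138 in WT and 182 and 224 in the KO-labelled libraries. The spread within WT was larger than the step from WT replicate 2 to the lower of the other pair. With means of 107 ± 44.1 and 203 ± 29.6 (SD, n = 2 each), the log2 fold change was 0.95 (edgeR, SE 0.232, adjusted p = 0.0301). Tnfrsf9 (chr4:150914562-150946102, plus strand) had normalized counts of 69.8 and 143 in WT and 180 and 246 in the KO-labelled libraries. The same WT library was low for both genes, and WT replicate 2 had 1.82 times the Tnfrsf4 level and 2.05 times the Tnfrsf9 level of WT replicate 1. For Tnfrsf9 the means were 106 ± 51.7 and 213 ± 46.5 (SD, n = 2 each), a log2 fold change of 1.03 (edgeR, SE 0.278, adjusted p = 0.0413).

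Both calls depended on WT replicate 1 and on the method. Without it the log2 fold change was 0.58 for Tnfrsf4 and 0.6 for Tnfrsf9, with adjusted p-values of 0.0694 and 0.106 from edgeR. Without WT replicate 2 it was 1.45 and 1.64. DESeq2 called neither gene on all 4 libraries, with adjusted p-values of 0.133 and 0.195. Nor did edgeR on all 4 with its filterByExpr filter (adjusted p 0.0526 and 0.0685) or with no filter on low counts (0.137 and 0.163).

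**Figure D2:**
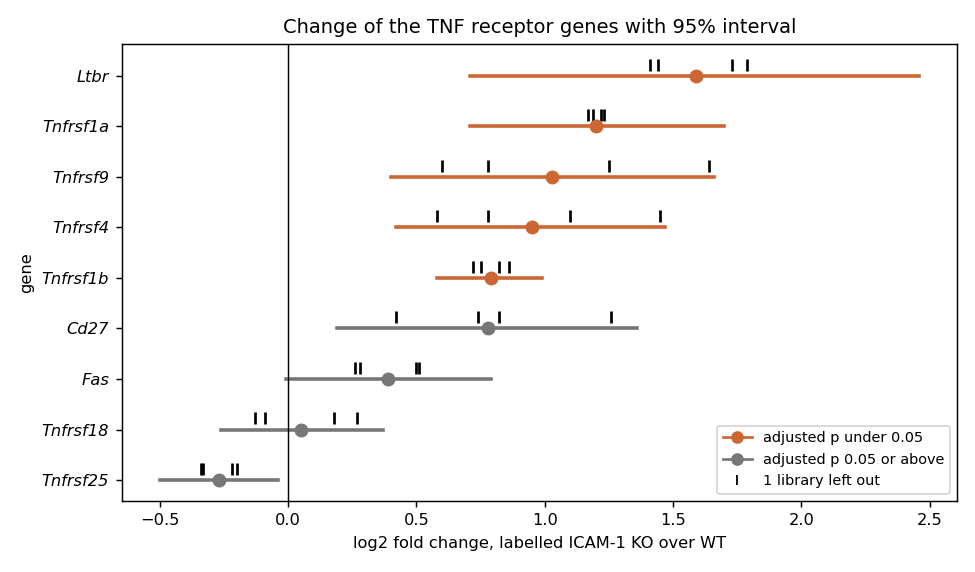
Log2 fold change (KO-labelled libraries over WT) of the 9 tested receptor genes, with dots for the edgeR estimate, lines for its 95% interval and black ticks for the estimates with 1 library left out. The ticks of Tnfrsf1a span 1.17 to 1.23, those of Tnfrsf9 0.6 to 1.64, and those of Tnfrsf18 fall on both sides of 0.

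Tnfrsf18 encodes GITR and lies on chr4:156026164-156028895 (plus strand). The normalized counts were 263 and 346 in WT and 283 and 337 in the KO-labelled libraries, so the WT values enclosed the others. The log2 fold change was 0.05 (95% interval -0.26 to 0.37, adjusted p = 0.839, edgeR), and its sign turned to -0.13 without WT replicate 1 and to -0.09 without ICAM-1 KO replicate 2. The antisense gene Gm16008 covers Tnfrsf18 and shares 414 of its 1524 exon bases. Gm16008 had 143.5 to 214.6 counts per library, and since the use of strand in counting is not stated, reads of the shared bases cannot be told apart.

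Cd27, the receptor of CD70 on lymphocytes, lies on chr6:125232622-125237010 (minus strand). Normalized counts were 10.3 and 18.4 in WT and 25.1 and 23.3 in the KO-labelled libraries, with the lowest value again in WT replicate 1. The log2 fold change of 0.78 (95% interval 0.19 to 1.36) did not pass the test (adjusted p = 0.0795, edgeR). It was 1.26 without WT replicate 2 (adjusted p = 0.0287, edgeR) and 0.42 without WT replicate 1 (adjusted p = 0.263, edgeR). DESeq2 called the gene with an adjusted p of 0.0348. Cd27 lies inside Vamp1 on the other strand, with 0 exon bases in common, and shares 129 exon bases with the microRNA gene Mir8113.

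Ltbr and Tnfrsf14 were the least abundant members. Ltbr, the lymphotoxin beta receptor, which is known mainly from stromal and myeloid cells, lies on chr6:125306571-125313885 (minus strand). Its counts were 54 and 73 in WT, and 194 and 170 in the KO-labelled libraries, or 1.82 and 2.34 against 6.77 and 5.45 normalized counts. With means of 2.08 ± 0.373 and 6.11 ± 0.934 (SD, n = 2 each), its log2 fold change of 1.59 (standard error 0.385, 95% interval 0.71 to 2.46, adjusted p = 0.0294, edgeR) was the highest estimate of the 9, although its interval overlapped those of the other 4 genes that rose. Leaving out 1 library gave log2 fold changes of 1.41 to 1.79, so the size of the rise was kept, but the call was lost in 3 of these fits. The adjusted p was 0.114 without WT replicate 1 (1.41), 0.0817 without WT replicate 2 (1.79) and 0.0876 without ICAM-1 KO replicate 1 (1.44), all from edgeR. Tnfrsf14, which encodes HVEM (chr4:154921933-154928563, minus strand), had 20 and 59 counts in WT, and in the KO-labelled libraries it had 19 and 26. These values overlapped, and the gene was too low to be tested. With no filter on low counts its log2 fold change was -0.79 (95% interval -2.51 to 0.93, adjusted p = 0.572, edgeR), an interval that covers changes in both directions.

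Levels of different receptors were compared per length, as TPM (counts divided by exon length and scaled to the same total in each library). Tnfrsf18 was the most abundant receptor transcript in both groups, at 524 and 673 TPM in WT and 597 and 672 TPM in the KO-labelled libraries, above 98.8% and 99% of all genes with a length. In WT it was followed by Tnfrsf4 (mean 234 TPM), Tnfrsf25 (175), Tnfrsf1b (135), Tnfrsf9 (117), Fas (33), Cd27 (18.4), Tnfrsf1a (9.78), Tnfrsf14 (2.62) and Ltbr (2.61). The ranges of 3 neighboring pairs overlapped, Tnfrsf4 with Tnfrsf25, Tnfrsf1b with Tnfrsf9, and Tnfrsf14 with Ltbr. In the KO-labelled libraries the order was Tnfrsf18 (635 TPM), Tnfrsf4 (464), Tnfrsf9 (244), Tnfrsf1b (238), Tnfrsf25 (148), Fas (44.1), Cd27 (32.5), Tnfrsf1a (23), Ltbr (8.1) and Tnfrsf14 (1.61), and only Tnfrsf9 and Tnfrsf1b overlapped. Tnfrsf25 thus stood below Tnfrsf18 and Tnfrsf4 by mean in WT, and below Tnfrsf9 and Tnfrsf1b as well in the KO-labelled libraries.

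**Figure D3:**
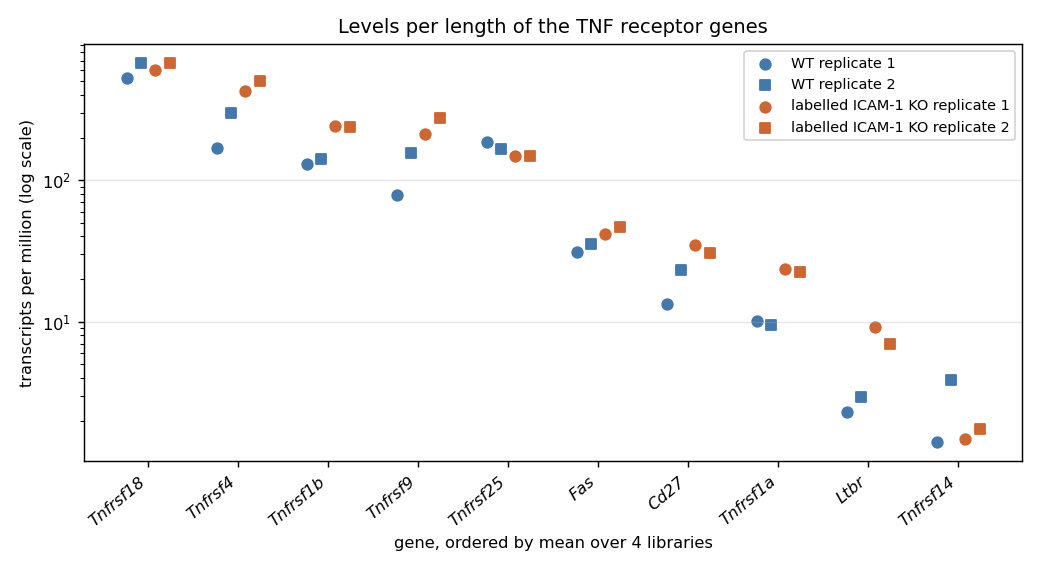
Level per length (TPM, log axis) of each receptor gene in each of the 4 libraries, in the colors and symbols of the plot of normalized counts. Tnfrsf18 lies at 524 to 673 TPM in all 4 libraries, and Ltbr and Tnfrsf14 lie below 10 TPM.

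Ratios between receptors within a library do not depend on library scaling. The TPM ratio of Tnfrsf4 to its neighbor Tnfrsf18 was 0.322 and 0.445 in WT and 0.718 and 0.742 in the KO-labelled libraries. The ratio of Tnfrsf1b to Tnfrsf25 was 0.702 and 0.851 in WT and 1.64 and 1.58 in the other pair, so Tnfrsf25 was the more abundant of these in WT and Tnfrsf1b in the KO-labelled libraries. The ratio of the TNF receptors Tnfrsf1b and Tnfrsf1a was 12.9 and 14.8 against 10.2 and 10.5, in the opposite direction. Groups did not overlap for these 3 ratios, for each of which the two-sided exact permutation test gave p = 0.333, the smallest that 2 against 2 libraries allow. The ratio of Tnfrsf9 to Tnfrsf4 was 0.461 and 0.518 against 0.496 and 0.551, with overlapping groups. For Tnfrsf25 to Tnfrsf18 it was 0.354 and 0.245 against 0.247 and 0.221, and the groups also overlapped.

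By position, 6 of the receptor genes lie on chromosome 4 and 3 on chromosome 6. Cd27, Ltbr and Tnfrsf1a lie within 130 kb of one another. All 3 had higher values in both KO-labelled libraries, as did 28.3% of all genes tested. By the edgeR test Ltbr and Tnfrsf1a rose and Cd27 did not pass. Of the 13 other tested genes in this stretch and 250 kb to each side, 2 rose and 2 fell (median log2 fold change 0.03). Tnfrsf4 and Tnfrsf18 are separated by 9.55 kb, and of the 21 other tested genes around them 1 rose and 2 fell (median -0.05).

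The rest of the pathway was read from lists of genes named for their role. Of 18 other TNF receptor genes, 12 were tested, 1 rose and 0 fell by edgeR, with a median log2 fold change of 0.2. The one that rose was Tnfrsf13b, encoding TACI, a receptor known from B cells, with normalized counts of 25.1 and 22.9 in WT and 35.6 and 40.2 in the KO-labelled libraries (log2 fold change 0.69, adjusted p = 0.0229, edgeR). The call was lost without WT replicate 1, WT replicate 2 or ICAM-1 KO replicate 2, with 0.59 to 0.78 as the range over libraries left out in turn. At an unadjusted p under 0.05, 1 of the 12, Tnfrsf8, was lower, as were 1537 of all 11711 genes tested. Normalized counts of Tnfrsf8 were 71.8 and 106 in WT and 61.1 and 54.6 in the KO-labelled libraries (log2 fold change -0.6, adjusted p = 0.0523, edgeR). Tnfrsf22, Tnfrsf23 and Tnfrsf26 are closely related copies whose reads can be split in counting, and their values are uncertain.

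Of 10 ligands of the receptors, 7 were tested and only Fasl, the ligand of Fas, rose. Its counts were 79 and 79 in WT and 226 and 252 in the KO-labelled libraries (log2 fold change 1.66, adjusted p = 0.0147, edgeR), while Fas itself did not pass the test. None of the 7 fell, and their median was -0.12. None was lower at an unadjusted p under 0.05 in edgeR, where 1537 of all 11711 genes tested were. The call of Fasl was lost without WT replicate 1 or 2, where 1.63 to 1.69 was the range of the log2 fold change over all libraries left out in turn. Of 20 adaptors and signalling proteins, all tested, 2 rose and 0 fell (0 were lower at an unadjusted p under 0.05, edgeR), with a median of 0.09. Birc2, which encodes the ubiquitin ligase cIAP1, rose from 45.6 ± 5.06 to 78.5 ± 6.92 normalized counts (SD, n = 2 each), a log2 fold change of 0.81 (adjusted p = 0.00584, edgeR). Cyld, which encodes a deubiquitinase that limits NF-kB activity, rose by 0.43 on the log2 scale (adjusted p = 0.0319, edgeR), but passed the test in 6 of 11 alternatives, whereas Birc2 passed in all 11.

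Of 14 NF-kB subunits and target genes, 2 rose and 2 fell, with a median of 0.01. Rel, the NF-kB subunit c-Rel, rose from 68.4 and 78.6 normalized counts to 124 and 116 (log2 fold change 0.73, adjusted p = 0.00418, edgeR). Bcl2a1b, a survival gene of the BCL2 family, rose by 1.07 on the log2 scale (adjusted p = 0.00761, edgeR), although it has near-identical copies and its counts are uncertain. Bcl3 and Nfkbib, both encoding IkB family proteins, fell by 0.55 and 0.36 on the log2 scale (adjusted p = 0.019 and 0.044, edgeR). Rel passed the test in all 11 alternatives, Bcl2a1b in 9, Bcl3 in 7 and Nfkbib in 5, and Bcl2a1b was lost without WT replicate 1.

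**Figure D4:**
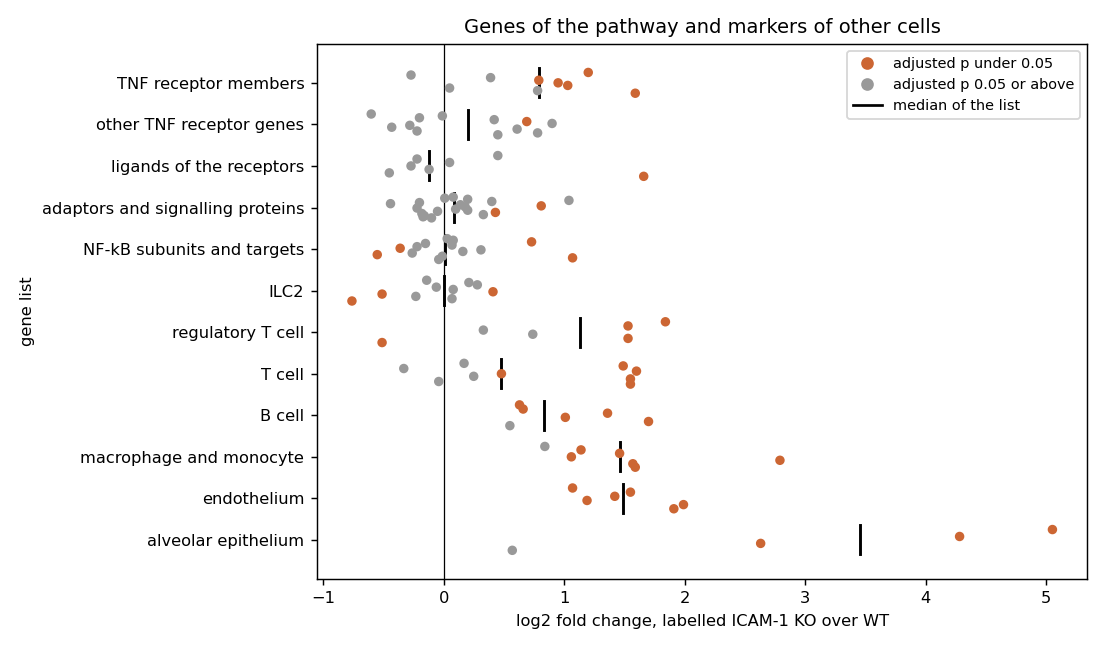
Log2 fold change of each tested gene in the receptor set, the pathway lists and the marker lists, in orange where the adjusted p was under 0.05, with black lines for the medians. The granulocyte list is left out because Epx had 0 counts in both KO-labelled libraries. The receptor median of 0.79 lies above those of the ligands (-0.12), adaptors (0.09) and NF-kB genes (0.01), and the lists of other cells have medians of 0.48 to 3.45.

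Many markers of other cells were higher in the KO-labelled libraries, as were the 5 receptors that rose, though some markers fell, and their part in the receptor changes was not tested. Several of the receptors are also known from these cells. The lineage antibodies of the sort included CD3ε, CD4, CD5, CD45R, CD11b and Gr-1, which are directed against T cells, B cells and myeloid cells. Of 6 regulatory T cell markers, 3 rose and 1, Il2ra, fell. Their summed normalized counts overlapped, at 1060 to 1320 in WT and 1180 to 1260 in the KO-labelled libraries. Il2ra, which is also on the ILC2 list, made up a large part of these sums. It had 699 and 836 in WT and 536 and 524 in the KO-labelled libraries, so the sums do not show how the other markers moved. Foxp3, which defines regulatory T cells, rose from 42.4 and 53.9 to 157 and 181 normalized counts, a log2 fold change of 1.84 (adjusted p = 0.000224, edgeR), and Ikzf2 rose by 1.53, while Ctla4 did not pass the test. Of 9 T cell markers, 5 rose (summed 657 to 721 and 948 to 1130). Cd3d rose by 1.49 on the log2 scale (adjusted p = 0.00796, edgeR), whereas Cd3e and Cd3g, which encode other chains of the same complex, had log2 fold changes of 0.17 and -0.33 and did not pass the test. The other T cell markers that rose were Trac, Cd5 and Cd4 (log2 fold changes of 1.6, 1.55 and 1.55) and Trbc1 (0.48). Of the 9 T cell markers, 0 fell.

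Of 6 B cell markers, 5 rose (summed 1030 to 2090 in WT and 3980 to 5520 in the KO-labelled libraries). Most of each sum was Ighm, with 874 and 1940 in WT and 3680 and 5280 in the KO-labelled libraries. The sums thus do not give the size of the rise in the other markers. Of 7 macrophage and monocyte markers, 6 rose (232 and 229 against 475 and 730), as did all 6 endothelial markers (94.4 and 102 against 233 and 241). Lyz2 made up most of each macrophage and monocyte sum, with 169 and 172 in WT and 344 and 577 in the KO-labelled libraries. Of 6 alveolar epithelial markers, 4 were tested and 3 rose (68.5 and 35.1 against 389 and 799), and Sftpb and Nkx2-1 had 0 counts in WT replicate 2. In the KO-labelled libraries most of the alveolar sum was Sftpc (253 and 537) and Sftpa1 (112 and 220). Of 6 granulocyte markers, 5 were tested, 3 rose and the eosinophil granule genes Epx and Prg2 fell. Epx had 1027 and 739 counts in WT and 0 in both of the others.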

How the data were processed

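RNA of sorted lung ILC2s was measured in 4 libraries, 2 WT and 2 labelled ICAM-1 KO, grouped by the GEO labels. The authors made cDNA with a SMARTer low-input kit, sequenced it on a NextSeq system, aligned reads to mm10 with STAR and GENCODE annotation and estimated counts with the E/M method of Partek. The STAR version differs between the sources used here. The deposited expected counts are not normalized, and 56.7% of the values lie within 0.001 of a whole number. The deposited normalized signal equals, within 0.1%, the count plus 1 multiplied by 1 upper quartile factor per library.

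Counts were rounded and tested with edgeR 4.0.16 in R 4.3.3 (glmQLFit with legacy set to FALSE, glmQLFTest, upper quartile factors, no covariate). Genes whose normalized counts averaged 1 or more and summed to 10 or more (11711) were tested with Benjamini-Hochberg adjustment and a threshold of 0.05. The study's own differential test was not run. TPM was computed here from counts and merged exon lengths of GENCODE M21, over 22377 genes with a length. Fas was matched to that release by symbol. Alternatives were TMM factors, DESeq2 1.42.0, limma 3.58.1 on log2 of the normalized count plus 1, other filters, the older quasi-likelihood method, a replicate block, a 2-fold rule and leaving out each library.

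The receptor genes and all lists were chosen with earlier results of these data known. Named were all 10 receptors, Icam1, the genes with an adjusted p under 0.05 in the receptor list (up to 6) and each pathway list (up to 4), and the first 3 markers of a list. Epx, Prg2, Il2ra, Sftpb, Nkx2-1, Tnfrsf8 and Ighm and the promoter motifs were chosen after their values were seen, as were Tnfrsf22, Tnfrsf23 and Tnfrsf26 for their likeness. Trac, Cd5, Cd4, Trbc1, Lyz2, Sftpc and Sftpa1 were also named after their values were seen. Each library is a separate pool, and p-values measure the spread between 2 pools per group. Reads carry no molecular identifiers, so counts are not independent molecules. Depth ranged from 24796148 to 28782471 counts per library, and log CPM correlated at 0.966 and 0.969 within groups and at 0.93 to 0.938 between them.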

Additional observations from a re-analysis of the deposited data

How the results depend on the processing

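Tnfrsf1a and Tnfrsf1b passed the test in all 11 alternative fits, and no receptor gene was called lower in any. Tnfrsf1b, which rose 1.72-fold, did not meet the added 2-fold rule. The count of receptor genes that rose was 5. It was 2 with no filter on low counts, 3 with edgeR's filterByExpr and 3 when a change of at least 2-fold was also required. Leaving out 1 library gave counts from 2 to 5, with 2 (Tnfrsf1a and Tnfrsf1b) without WT replicate 1. Fits without a library leave 1 sample in a group, whose spread is assumed to equal that of the other group. With DESeq2 the count was 4, with Cd27 in place of Tnfrsf4 and Tnfrsf9. The log2 fold change of Tnfrsf18 ranged from -0.13 to 0.27 with 1 library left out and changed sign without WT replicate 1 (-0.13) and without ICAM-1 KO replicate 2 (-0.09). Over the 9 tested receptors, 82 of 99 alternative fits kept direction and call, 13 lost the call, 2 gained it and 2 changed sign. Receptors not called in the main fit had no call to lose. All 13 losses were in Ltbr, Tnfrsf4 and Tnfrsf9, which passed in 7, 7 and 6 of 11 fits. The other named genes that were tested were put through the same alternatives after the data had been seen. Excepted were Tnfrsf8, Ighm, Trac, Cd5, Cd4, Trbc1, Lyz2, Sftpc and Sftpa1. Changes of sign were seen only with a library left out, for Cd3e (-0.15 without WT replicate 1, -0.11 without ICAM-1 KO replicate 2), Tnfrsf23 (-0.26 without WT replicate 2) and Tnfrsf26 (0.02 without WT replicate 1), and their log2 fold changes ranged from -0.15 to 0.57, -0.26 to 2.84 and -0.43 to 0.02. Foxp3, Ikzf2, Birc2 and Rel passed the test in all 11. The numbers of all genes that rose and fell, 1030 and 582, became 334 and 201 with no filter (22158 genes tested), 479 and 208 without WT replicate 1, and 523 and 158 without WT replicate 2. Genes that fell numbered 930 with DESeq2, 357 without ICAM-1 KO replicate 1 and 388 without ICAM-1 KO replicate 2. With the replicate number as a block (replicate block), 5 receptor genes rose and no call of a receptor changed. Deviations of same-numbered libraries correlated at -0.058, so the numbers were not taken to pair the samples. In the order of levels per length, 7 of the 10 genes kept their rank when the longest transcript replaced the merged exons, and all 10 did with normalized counts per kb. The causes of these changes were not tested.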
